A study of Mus musculus with 4 samples.

Results

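Cerebrum RNA of the constitutive endothelial Mfsd2a knockout was compared with that of its control, gene by gene. The knockout pool, 2aECKO, came from mice that carry the floxed Mfsd2a allele on both chromosomes (Mfsd2afl/fl) and a Tie2-cre transgene. The control pool, 2afl/fl, came from mice with the same floxed allele and no cre, and both were taken at postnatal day 9. Tie2-cre is driven by a promoter of endothelial cells that is also active in part of the blood lineage. The mice were of both sexes, were perfused with PBS before the cerebrum was removed, and their RNA was pooled in equal amounts from 5 to 6 animals per genotype. Each pool was hybridised to 1 Affymetrix Mouse 430 2.0 array, which reads a transcript through groups of short probes called probe sets. A second pair of pools at postnatal day 8, 2aiECKO (Mfsd2afl/fl with Cdh5ERT2-cre, which acts in endothelium after 4-hydroxytamoxifen, 4-OHT) and 2afl/fl given 4-OHT, is quoted beside the first pair. It is no replicate, since age, cre line and drug differ. Signals of sex-linked genes differed between the 2 controls as well. Xist read 3916 in 2afl/fl and 1738 in the 4-OHT control, while Eif2s3y, on the Y chromosome, read 92.7 and 244. The pairs appear to have been summarised apart, and the median signals of these control arrays were 74.1 and 48.7. The gaps between the controls are therefore not folds. The share of each sex in a pool was not tested.

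Members were all genes with a probe set of 1 gene symbol and a signal of at least 50 on either array, each read at the probe set that was brightest over both arrays on average. This left 13194 of 18194 named genes. The log2 fold of a gene is the log2 signal in 2aECKO minus that in 2afl/fl. A gene was called higher where its signal was at least 25% above the control and lower where it was at most 0.8 of it, which are the call limits used throughout. With 1 array per group no difference has a replicate check on these arrays and no test was possible. The precision of every value is limited by the number of arrays. In pooled tissue, fewer cells of a type and less RNA per cell cannot be told apart.

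Mfsd2a is a transporter of the endothelium of the blood-brain barrier that carries lysophosphatidylcholine, and with it the omega-3 fatty acid docosahexaenoic acid (DHA), into the brain. Cells also make fatty acids and cholesterol themselves. These pathways are run by the Srebp transcription factors, which are released from the endoplasmic reticulum when membrane sterols are low, and Srebp-1 is also induced by the sterol receptor LXR and restrained by polyunsaturated fatty acids. The postnatal cerebrum is at the same time adding astrocytes, myelin, synapses and the ciliated ependymal lining of its ventricles.

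Of the 13194 members, 297 were higher in 2aECKO and 229 were lower, which is 2.25% and 1.74%. The median log2 fold was -0.01 with a spread of 0.12 (robust SD across genes), and 96.0% of genes lay between the call limits. Over all members 46.0% had a log2 fold above 0, the share to set beside list counts above or below 0. The range ran from -0.83 to 1.29, with 4 genes higher by at least 2-fold and 0 lower by that size. The count of lower genes moved with the filter on low signals, to 143 at a minimum signal of 100, 482 with no minimum and 136 with 16 added to each signal. When the 2aECKO array was set against the 4-OHT control instead, after quantile normalization of all 4 arrays, 1070 genes were higher and 2221 lower of 12854, in a comparison that also takes in the differences between the pairs. Of the 297 higher genes 130 were still higher there and 21 were not measured, and of the 229 lower genes 94 were still lower and 37 were not measured. Some list medians from it are quoted as those with the other control, where they turned direction or fell by over 1.5 times. Single folds scattered more where signals were low. At a mean signal from 50 to 100 the robust SD was 0.15 over 2246 genes, and above 1600 it was 0.09 over 1411 genes. Genes with a signal below 50 on 1 array became members only through the array on which they were higher. All genes with a mean below 50 are of this kind, so their spread is set in part by the filter. Named higher genes of this kind include Bpifb9b, Cdhr4, Lhx1, Dnali1, Kcne2, Ehhadh and Robo2. Named lower ones include Ano3, Gpr183, Erich6, Tdo2, Tnfrsf22, Spink8, Kcnh7, Kcnn3, Irf7 and Cryaa. A gene of this kind could differ only in the direction of the array that let it in. It adds no separate support to the list counts that hold it. Several probe sets of a gene read the same pool and bear on the array, not on the animals. Of the 113 higher genes with several passing probe sets, 103 (91.2%) had all of them above 0, and of 65 such lower genes 55 (84.6%) had all below 0, against 55.0% with 1 common sign over all 6226 members of that kind. By the same rule 1.88% of the 12057 members of the 2aiECKO pair were higher there. At the probe sets used here 249 genes (1.89%) were higher and 85 (0.644%) lower in 2aiECKO, and 71 genes were higher in both pairs, 23.9% of those higher in 2aECKO and 28.5% of those higher in 2aiECKO. The genes lower in both numbered 16, or 6.99% and 18.8%.

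**Figure D1:**
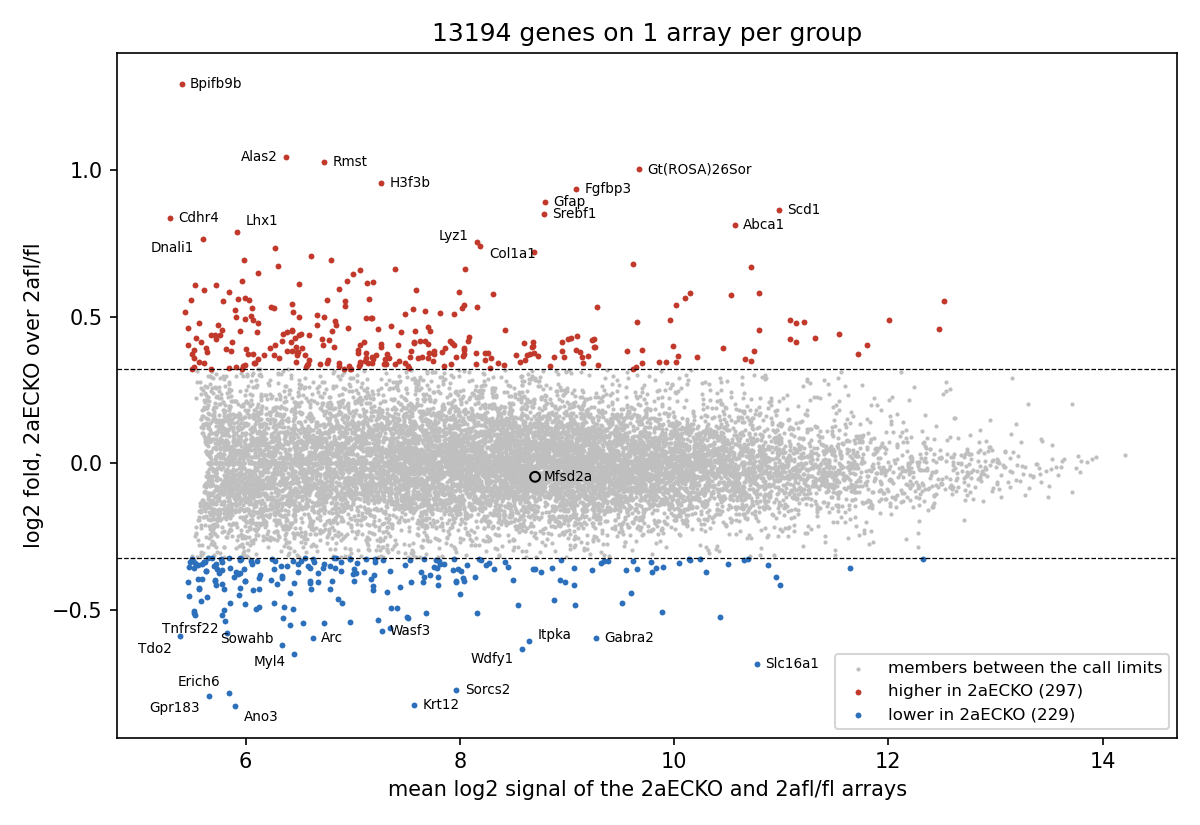
Log2 fold of 2aECKO over 2afl/fl (vertical axis) against the mean log2 signal of both arrays (horizontal axis) for each of 13194 genes, with 1 pooled array per group; dashed lines mark the call limits, and the 15 highest and 15 lowest genes with probe sets of 1 sign are labelled. The 297 higher genes (red) reach a log2 fold of 1.29 and the 229 lower genes (blue) -0.83, and Mfsd2a (circle) lies at -0.05.

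The arrays carry their own controls. The polyadenylated controls added before labelling had lower signals on the 2aECKO array at all 24 of their probe sets, with a median log2 fold of -0.38 (from -0.56 to -0.21), while in 2aiECKO the median was -0.01. The controls added at hybridisation did not show this, with a median log2 fold of 0.01 over 18 probe sets. The ratio of 3′ to 5′ signal, a measure of RNA integrity, was 1.28 in 2afl/fl and 1.30 in 2aECKO for beta-actin, and 0.912 and 0.891 for Gapdh. The single probe set of Mfsd2a had signals of 423 and 410, a log2 fold of -0.05. In the 2aiECKO pair the same probe set had 369 in the control and 299 in the knockout, a log2 fold of -0.30. Neither is past a call limit. Where the probe set lies against the exons that cre removes was not looked up here, and these values do not show the deletion in the 2aECKO pool.

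The arrays were run to find pathways under the control of DHA, and genes of lipid synthesis are described first. The paper also measured Srebp target genes by Nanostring, a direct count of transcripts, in the RNA of individual brains. It reports them as higher in 2aECKO. Of 30 measured genes that synthesise or desaturate fatty acids, 8 (26.7%) were higher and 0 lower, with a median log2 fold of 0.13. The other 22 lay between the limits, from -0.15 upwards, so the list holds a few large differences beside many small ones. Of 19 genes of cholesterol synthesis 4 (21.1%) were higher and 0 lower, and the median was 0.22, with 18 of 19 above 0. Here nearly the whole pathway stood a little above its control. In 2aiECKO the medians of these lists were 0.08 and -0.01, and with the other control the cholesterol median in 2aECKO was 0.13.

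Regions before the transcription start of lipid genes can be read beside their folds. The 5 windows of 300 bases shown were picked because they hold an NF-Y box, 4 from called genes and 1 from Hmgcs1, which was not called. They run from 250 bases before the start to 50 after, from RefSeq (GRCm38.p6), 5′ to 3′ on the strand of the gene. Capitals mark the NF-Y box (CCAAT or its complement, found on both strands) and, in Hmgcs1 alone among these 5, also the sterol regulatory element (TCACNCCAC), at which Srebp binds. NF-Y is a factor that works beside Srebp at many lipid genes.
Fasn, chr11:120824498-120824797, minus strand: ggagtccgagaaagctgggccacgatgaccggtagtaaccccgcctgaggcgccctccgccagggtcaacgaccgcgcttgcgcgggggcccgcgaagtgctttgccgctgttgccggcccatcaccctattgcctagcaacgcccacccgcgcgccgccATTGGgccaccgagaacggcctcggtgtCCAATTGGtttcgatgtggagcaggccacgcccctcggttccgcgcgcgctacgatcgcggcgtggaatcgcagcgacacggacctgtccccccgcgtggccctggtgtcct
Thrsp, chr7:97417501-97417800, minus strand: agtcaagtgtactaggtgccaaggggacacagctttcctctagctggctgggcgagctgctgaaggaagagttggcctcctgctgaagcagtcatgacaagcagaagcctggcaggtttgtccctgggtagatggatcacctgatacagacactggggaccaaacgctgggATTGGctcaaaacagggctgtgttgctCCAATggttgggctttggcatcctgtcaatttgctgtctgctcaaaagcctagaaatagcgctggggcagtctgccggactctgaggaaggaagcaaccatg
Mvd, chr8:122443373-122443672, minus strand: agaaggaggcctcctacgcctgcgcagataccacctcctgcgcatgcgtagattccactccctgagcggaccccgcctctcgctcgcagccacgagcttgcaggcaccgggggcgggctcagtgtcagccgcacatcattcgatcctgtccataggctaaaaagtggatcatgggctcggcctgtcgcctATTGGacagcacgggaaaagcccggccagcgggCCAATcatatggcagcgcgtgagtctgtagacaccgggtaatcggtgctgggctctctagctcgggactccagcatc
Nsdhl, chrX:72918271-72918570, plus strand: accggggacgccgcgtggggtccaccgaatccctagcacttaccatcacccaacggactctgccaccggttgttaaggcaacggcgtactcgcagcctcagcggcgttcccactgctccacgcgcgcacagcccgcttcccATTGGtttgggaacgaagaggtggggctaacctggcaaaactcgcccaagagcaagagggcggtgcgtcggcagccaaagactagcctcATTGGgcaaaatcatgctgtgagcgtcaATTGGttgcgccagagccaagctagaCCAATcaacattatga
Hmgcs1, chr13:119690101-119690400, plus strand: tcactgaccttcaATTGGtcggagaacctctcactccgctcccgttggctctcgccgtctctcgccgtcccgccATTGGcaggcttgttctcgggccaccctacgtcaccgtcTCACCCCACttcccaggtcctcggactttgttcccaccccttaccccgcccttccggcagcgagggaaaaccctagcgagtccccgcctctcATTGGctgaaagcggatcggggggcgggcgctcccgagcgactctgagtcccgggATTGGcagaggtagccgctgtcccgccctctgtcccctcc
Of the 14 genes called higher in the lists of fatty acid synthesis, cholesterol synthesis and Srebp processing, 10 had a window in the table used, and 8 of the 10 (80.0%) held an NF-Y box. The share was 66.7% (10 of 15) for called genes over all lipid lists, 59.1% (81 of 137) for all measured lipid genes, 42.5% over the 10609 members with a window and 37.4% over all 32851 windows. The sterol regulatory element was found in 0 of the 10 windows, in 1 of 15 for called genes over all lipid lists (Ehhadh, 6.67%), in 2.19% of measured lipid genes and in 1.42% of the members with a window. The E-box CACGTG was found in 1 of the 10 (Insig1), against 11.5%. Hmgcs1, the synthase at the head of the mevalonate pathway, held the sterol element and had a log2 fold of 0.14, which is below the call limit. A match is only a run of letters, and its absence says only that these letters are not in this window.

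Among genes of fatty acid synthesis the largest folds were those of a desaturase and of the regulator itself. The signal of Scd1, which puts a double bond into saturated fatty acids, was 1499 in 2afl/fl and 2727 in 2aECKO (log2 fold 0.86). Srebf1, which encodes Srebp-1, read 328 and 591 (0.85). Thrsp, a lipogenic gene named for its response to thyroid hormone, read 157 and 237 (0.59), with probe sets from 0.09 to 0.59. Fads2 and Fads1 are the desaturases that build long polyunsaturated fatty acids such as DHA from dietary precursors. Fads2 read 1454 and 2174 (0.58), and its neighbour on chromosome 19, Fads1, read 1518 and 2079 (0.45). Every probe set of either gene was above the call limit, but with the other control neither gene was still past it. Pnpla3, a lipid droplet hydrolase induced by Srebp-1, read 71.8 and 98.0 (0.45). The remaining called genes of the list, named after their values were seen, were Fasn, fatty acid synthase, at a log2 fold of 0.42 and Mid1ip1, which activates acetyl-CoA carboxylase, at 0.35.

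In the sterol branch Lss, lanosterol synthase, went from a signal of 517 to 747 (log2 fold 0.53), though its other probe set gave 0.28. Mvd, which makes isopentenyl pyrophosphate, went from 471 to 636 (0.43), with 0.27 at another probe set. Fdps, farnesyl pyrophosphate synthase, went from 2204 to 2965 (0.43). Nsdhl removes methyl groups from sterols. Its signal was 1051 in the control and 1351 in 2aECKO (0.36). With the other control Mvd, Fdps and Nsdhl were no longer past the limit, and Fdps was at -0.08. Of 13 genes that process Srebp or take up sterols 2 were higher and 0 lower, with a median of 0.01. They were Stard4, a carrier of cholesterol between membranes, at 0.42 with its other probe sets no lower than 0.38, and Insig1, which holds Srebp in the endoplasmic reticulum, at 0.40.

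Of 15 LXR targets and sterol efflux genes 3 were higher and 0 lower, while the median was -0.01, or 0.10 with the other control. Abca1, which loads cholesterol and phospholipid onto apolipoproteins, had signals of 1146 and 2014 (log2 fold 0.81), and its 3 probe sets lay between 0.56 and 0.94. Apod, a lipid-binding apolipoprotein, had 622 and 996 (0.68), but 0.13 at another probe set. Abcg1, a partner of Abca1 in sterol export, had 303 and 382 (0.34), but was not past the limit with the other control. The same genes in 2aiECKO had log2 folds of 0.83, 0.42 and 0.34. Of 28 phospholipid genes 1 was higher, Lpin1, a phosphatidate phosphatase and Srebp target, at 0.39. Of 12 genes of fatty acid binding and transport 0 were called in either direction, and the largest were Abcd2, a peroxisomal importer, at -0.30 and Dbi, which binds acyl-CoA, at 0.25. Other probe sets of these genes reached -0.35 for Abcd2 and 0.36 for Dbi, both past a limit. The list of 12 triglyceride and lipid droplet genes also had 0 called, with Plin3, a droplet coat protein, at 0.28 and Abhd6, a monoacylglycerol lipase, at -0.27.

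Fuel genes split. Slc16a1, the monocarboxylate transporter that brings ketone bodies and lactate across the endothelium, went from a signal of 2222 to 1382 (log2 fold -0.68) at its only passing probe set. It was the lowest of the lipid and fuel genes. Ehhadh, a peroxisomal oxidation enzyme, was higher at 0.46 from signals of 37.7 and 51.9, and Pdk4, which turns glucose carbon away from oxidation, was higher at 0.36. These were 2 higher and 1 lower of 18 genes of fatty acid oxidation and ketone use. Of 18 genes of sphingolipid synthesis 1 was lower, St8sia5, a ganglioside sialyltransferase, at -0.34, or 0.08 with the other control. The plot of lipid genes by probe set shows these values together.

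**Figure D2:**
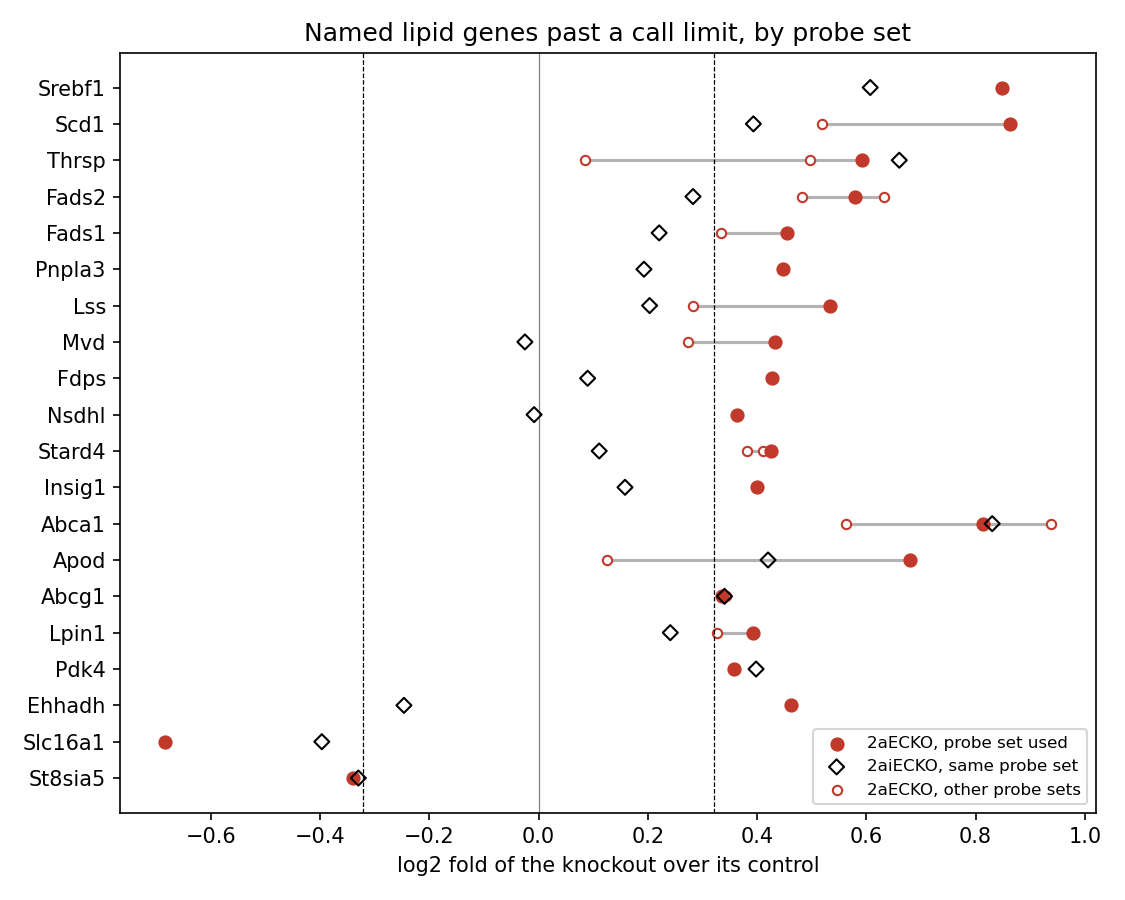
Log2 fold over the control (horizontal axis) of 20 named lipid genes past a call limit in 2aECKO; filled red points are the probe set used, open red points the other passing probe sets on the same array, black diamonds the same probe set in 2aiECKO, and dashed lines the call limits. Abca1 lies at 0.81 and 0.83 in both pairs, Mvd at 0.43 in 2aECKO and -0.03 in 2aiECKO, and Slc16a1 at -0.68 and -0.40.

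The listed transcripts of the endothelium, the main target of Tie2-cre, were near their control. Of 27 measured genes of endothelial identity and junctions 0 were called, and the median log2 fold was 0.02, between -0.28 for Cavin2, a caveola protein, and 0.28 for Emcn, a surface sialomucin. Other probe sets of Cavin2 were past the limit, at -0.39 and -0.34. Of 18 blood-brain barrier transporters 0 were called, and the median was 0.03, with Slco1a4, an organic anion carrier, at 0.26 and Slco1c1, a thyroxine carrier, at -0.19. That list does not hold Slc16a1, the endothelial carrier counted above with the fuel genes, which was lower at -0.68 (-0.40 in 2aiECKO). Pericyte and smooth muscle genes (13) had a median of 0.00 and 0 called, the largest being Pdgfrb, the pericyte growth factor receptor, at 0.29. Of the defining markers, Cldn5 of tight junctions read 1110 and 1069 (-0.05), and Pecam1, Cdh5 and Tek lay at -0.01, 0.04 and 0.07. Of 15 genes of hypoxia and angiogenic signals 0 were called, with a median of -0.07.

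Globin transcripts of red blood cells were higher in 2aECKO, in tissue from perfused mice. Probe sets that match several globin genes were not members, but all 3 for alpha globin and the 1 for beta globin were higher in 2aECKO by 2.71-fold to 2.84-fold, with signals of 2683 and 7438 at the brightest. Alas2, which starts haem synthesis in red cells, read 57.9 and 119.6 (log2 fold 1.05). In 2aiECKO the alpha globin probe sets lay between -0.77 and -0.68 and Alas2 at -0.51. Among 5 measured members of the erythroid list 2 were higher, the other being Hbb-b2 at 0.32. The part of blood RNA in other differences was not tested.

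Genes of the ventricle wall were higher together. Of 9 measured genes of ependymal cilia 8 (88.9%) were higher and 0 lower, with a median log2 fold of 0.44 and the lowest at 0.23. Foxj1, the master regulator of motile cilia, read 70.2 in 2afl/fl and 95.2 in 2aECKO (0.44). Dynlrb2, a dynein light chain, read 117 and 173 (0.56), and Rsph1, a radial spoke protein, 116 and 154 (0.40). Tmem212, a transcript of ciliated ependyma, had the largest fold of the list, with 106 and 168 (0.66). Pifo and Ccdc153, both found in ciliated cells, stood at 0.56 and 0.54. Among the 15 highest genes of all, Dnali1, an axonemal dynein chain outside the list, read 37.2 and 63.2 (0.76). It became a member only through its 2aECKO signal and adds no separate support. In 2aiECKO the same list had 0 called and a median of 0.14, and with the other control its median in 2aECKO was 0.03.

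Choroid plexus epithelium, which makes cerebrospinal fluid, showed the same direction. Of 11 genes 4 were higher and 0 lower, and all 11 lay above 0, with a median log2 fold of 0.24. Calml4 read 76.6 and 125 (0.71), Otx2, a homeobox factor of this epithelium, 55.4 and 86.9 (0.65), Kcne2, a potassium channel subunit, 45.5 and 66.8 (0.55) and Aqp1, its water channel, 70.05 and 93.5 (0.42). These signals are low, where single folds scatter more. Kcne2 became a member only through its 2aECKO signal and adds no separate support. Ttr, the thyroxine carrier that this epithelium secretes, read 12500 and 14391 (0.20). With the other control the list's median was 0.06.

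Of 20 genes of the thalamus and hypothalamus 5 were higher, 15 lay between the limits and 0 were lower, with a median of 0.24 and 17 above 0. Lhx1 read 46.2 and 79.8 (0.79), Irx2 62.4 and 99.4 (0.67), and Lhx9 171 and 228 (0.42), all being homeobox factors. Lhx1 became a member only through its 2aECKO signal and adds no separate support. Otp, a homeobox factor of the neuroendocrine hypothalamus, read 191 and 244 (0.35), and Avp, the vasopressin gene, 259 and 386 (0.58). Avp was at 0.58 in 2aiECKO as well, whereas Lhx1 and Irx2 were at 0.02 and -0.04 there, and the list's median was 0.02. Of 19 cortical layer genes 1 was higher and 1 lower with a median of -0.01. Of 19 striatal genes 1 was higher, the factor Isl1 at 0.53, and 2 lower, Ido1 at -0.43 and the dopamine receptor Drd2 at -0.37. How much diencephalon each pool held was not tested. With the other control the diencephalic median was -0.03 and the striatal one turned from -0.08 to 0.15.

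Of 18 meningeal and matrix genes 7 were higher, 11 lay between the limits and 0 were lower, with a median of 0.16 and 16 above 0. Both chains of type I collagen were among the higher ones, Col1a1 with signals of 226 and 378 (0.74) and Col1a2 with 1337 and 2127 (0.67). Fmod, which binds collagen fibrils, read 322 and 531 (0.72), with its 6 probe sets from 0.36 to 0.72. Ogn, a proteoglycan of the leptomeninges, read 208 and 311 (0.58), Igf2, a growth factor secreted by meninges and choroid plexus, 2004 and 2797 (0.48), and Serping1, an inhibitor of complement, 189 and 247 (0.38). In 2aiECKO Fmod and Ogn stood at 0.60 and 0.52, but Col1a1 and Col1a2 at 0.10 and 0.18.

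**Figure D3:**
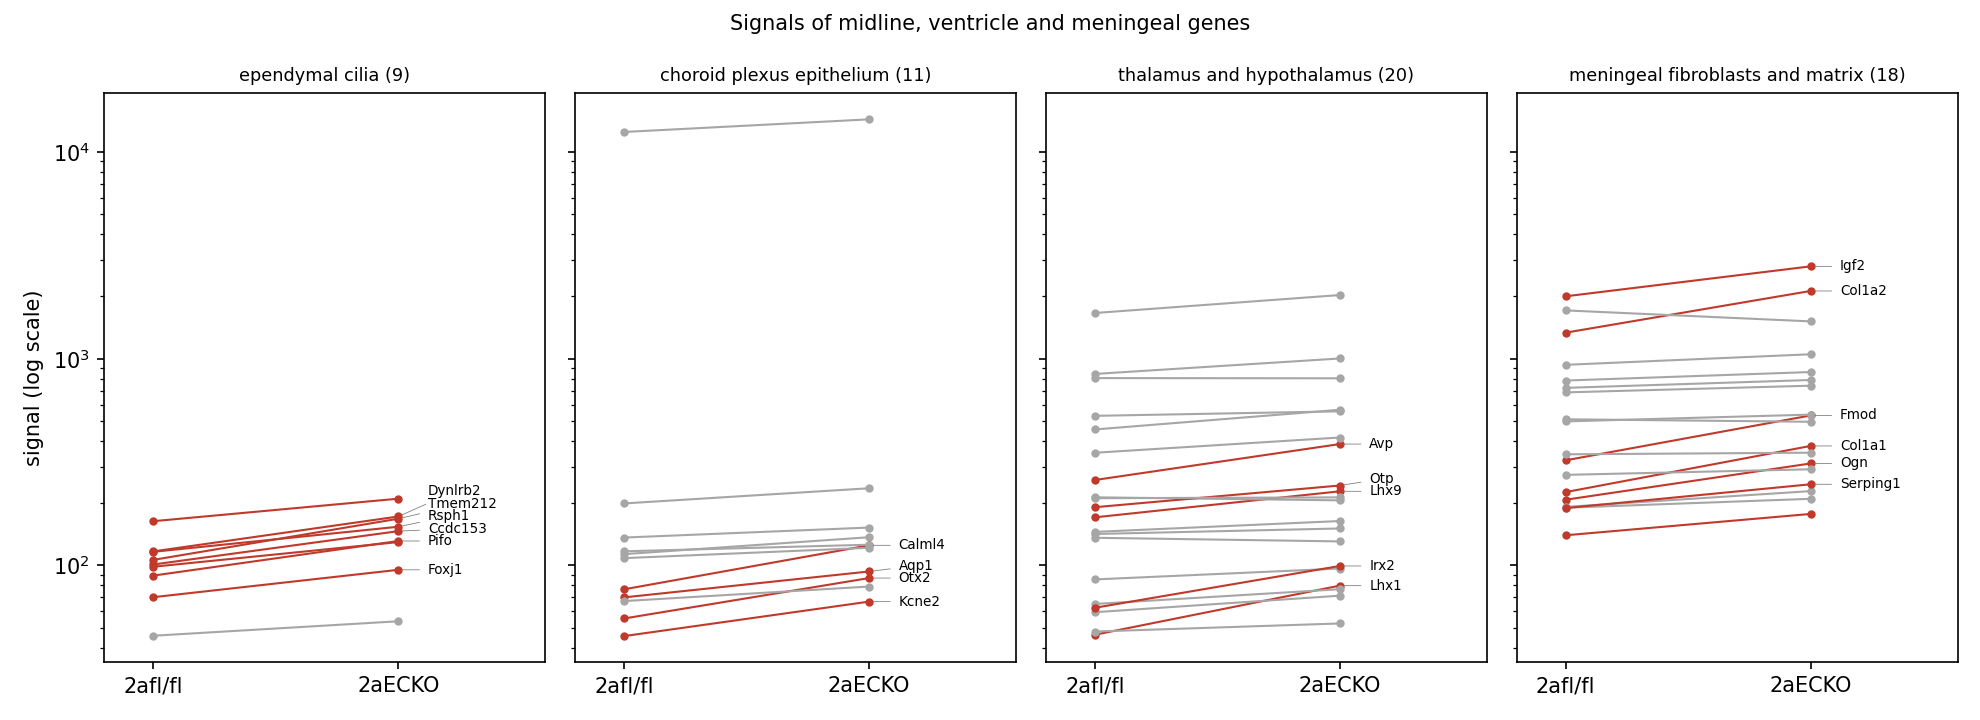
Signal (vertical axis, log scale) on the 2afl/fl and 2aECKO arrays for every measured member of 4 gene lists, 1 line per gene, red where called higher; named genes are labelled. In the ependymal list 8 of 9 lines are red, in the choroid plexus list 4 of 11, in the diencephalic list 5 of 20 and in the meningeal list 7 of 18, and 0 are called lower.

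Of 21 measured astrocyte genes 5 were higher and 0 lower, with a median log2 fold of 0.21 and 19 above 0. The other 16 lay between the limits, among them the glutamate transporter genes Slc1a2 at 0.00 and Slc1a3 at 0.06. Gfap, the intermediate filament of astrocytes, had signals of 326 and 604 (0.89) and its 3 probe sets lay between 0.76 and 0.89. Fam107a read 928 and 1390 (0.58), although another of its probe sets gave 0.05, and Ntsr2, the astrocytic neurotensin receptor, read 683 and 954 (0.48). Agt, angiotensinogen, was at 0.41 and Gjb6, a gap junction protein, at 0.32. Among 13 genes of reactive astrocytes 3 were higher, Gfap again, Vim, vimentin, at 0.39 and Cp, ceruloplasmin, at 0.33. The median of this list was 0.16, but 0.03 over the mean of all probe sets of each gene and -0.01 with the other control. In 2aiECKO the astrocyte list had 7 higher and a median of 0.27, with Gfap at 0.90.

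Several progenitor genes are also expressed by astrocytes and ependyma. Of 20 genes 6 were higher, 14 lay between the limits and 0 were lower, with a median of 0.19, or 0.08 with the other control. Id1 and Id3, inhibitors of differentiation induced by BMP signals, read 454 and 611 (0.43) and 729 and 953 (0.39). Prom1, a membrane protein of neuroepithelium, was at 0.42, Pax6, a radial glial factor, at 0.40 and Sox2, a stem cell factor, at 0.34. Genes of the cell cycle itself were near their control. Of 24, 0 were higher and 1 lower, Tk1, the thymidine kinase of dividing cells, at -0.33, and the median was -0.02. The BMP ligand Bmp4 was at 0.47 and the BMP target Id4 at 0.48, while the ligand Bmp2 was at -0.33. In all, 4 of 23 TGF-beta and BMP genes were higher and 1 lower. Of 27 genes of Wnt, Notch and hedgehog signalling 2 were higher, the secreted Wnt antagonist Sfrp1 at 0.54 and Notch2 at 0.42, each with another probe set at or below 0.13. Fgfbp3, which releases fibroblast growth factors from matrix, had the largest fold among 28 growth factor genes, with signals of 392.4 and 751 (0.94).

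Oligodendrocyte genes showed differences in both directions. Of 13 precursor genes 2 were higher, Bmp4 as above and Nkx2-2, a lineage factor, at 0.37. Of 14 myelin genes Bcas1, a gene of newly myelinating cells, was higher with signals of 1505 and 1964 (0.38), and Enpp6, of the same stage, was higher at 0.33, with 0.04 at another probe set. Mobp, a late myelin protein, was lower with signals of 254 and 201 (-0.34), all 4 of its probe sets lying between -0.42 and -0.32, but with the other control its log2 fold was 1.40. The medians of these lists were 0.06 and 0.02, and that of myelin was 0.40 with the other control.

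Of 19 microglial genes 0 were higher and 3 lower, while 13 were above 0 and the median was 0.05. The 3 lower ones are used as markers of resting microglia, but other such markers in the list lay between the limits, Cx3cr1 at 0.01, Fcrls at 0.03, Csf1r at 0.08 and Siglech at -0.14. Tmem119 read 137 and 99.3 (-0.46), P2ry12, a purine receptor, 467 and 363 (-0.36), and Selplg, a selectin ligand next to Tmem119 on chromosome 5, 112 and 88.9 (-0.33). Of 11 phagocyte and lysosomal genes 6 were higher and 0 lower, with 10 above 0 and a median of 0.34. Lyz1 and Lyz2, near-identical lysozyme genes whose probe sets may share transcripts, read 221 and 372 (0.75) and 133 and 211 (0.66). Gpnmb, a glycoprotein of lipid-laden macrophages, read 60.1 and 99.9 (0.73), and Lgals3, galectin-3, 72.7 and 104 (0.52). Mpeg1, a macrophage perforin, was at 0.39 and Apoc1, an apolipoprotein, at 0.34. In 2aiECKO 14 of the 19 microglial genes were higher, with a median of 0.56, and 7 of the 11 phagocyte genes, with a median of 0.53. With the other control the medians in 2aECKO were -0.20 for the microglial and -0.25 for the phagocyte list, both of the opposite sign. Of 14 genes of interferon response and antigen display 1 was lower (median 0.10, or -0.21 with the other control), Irf7 at -0.36, from signals of 62.5 and 48.5. Gpr183, an oxysterol receptor of immune cells, was among the 15 lowest genes of all (66.3 and 38.3, -0.79).

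**Figure D4:**
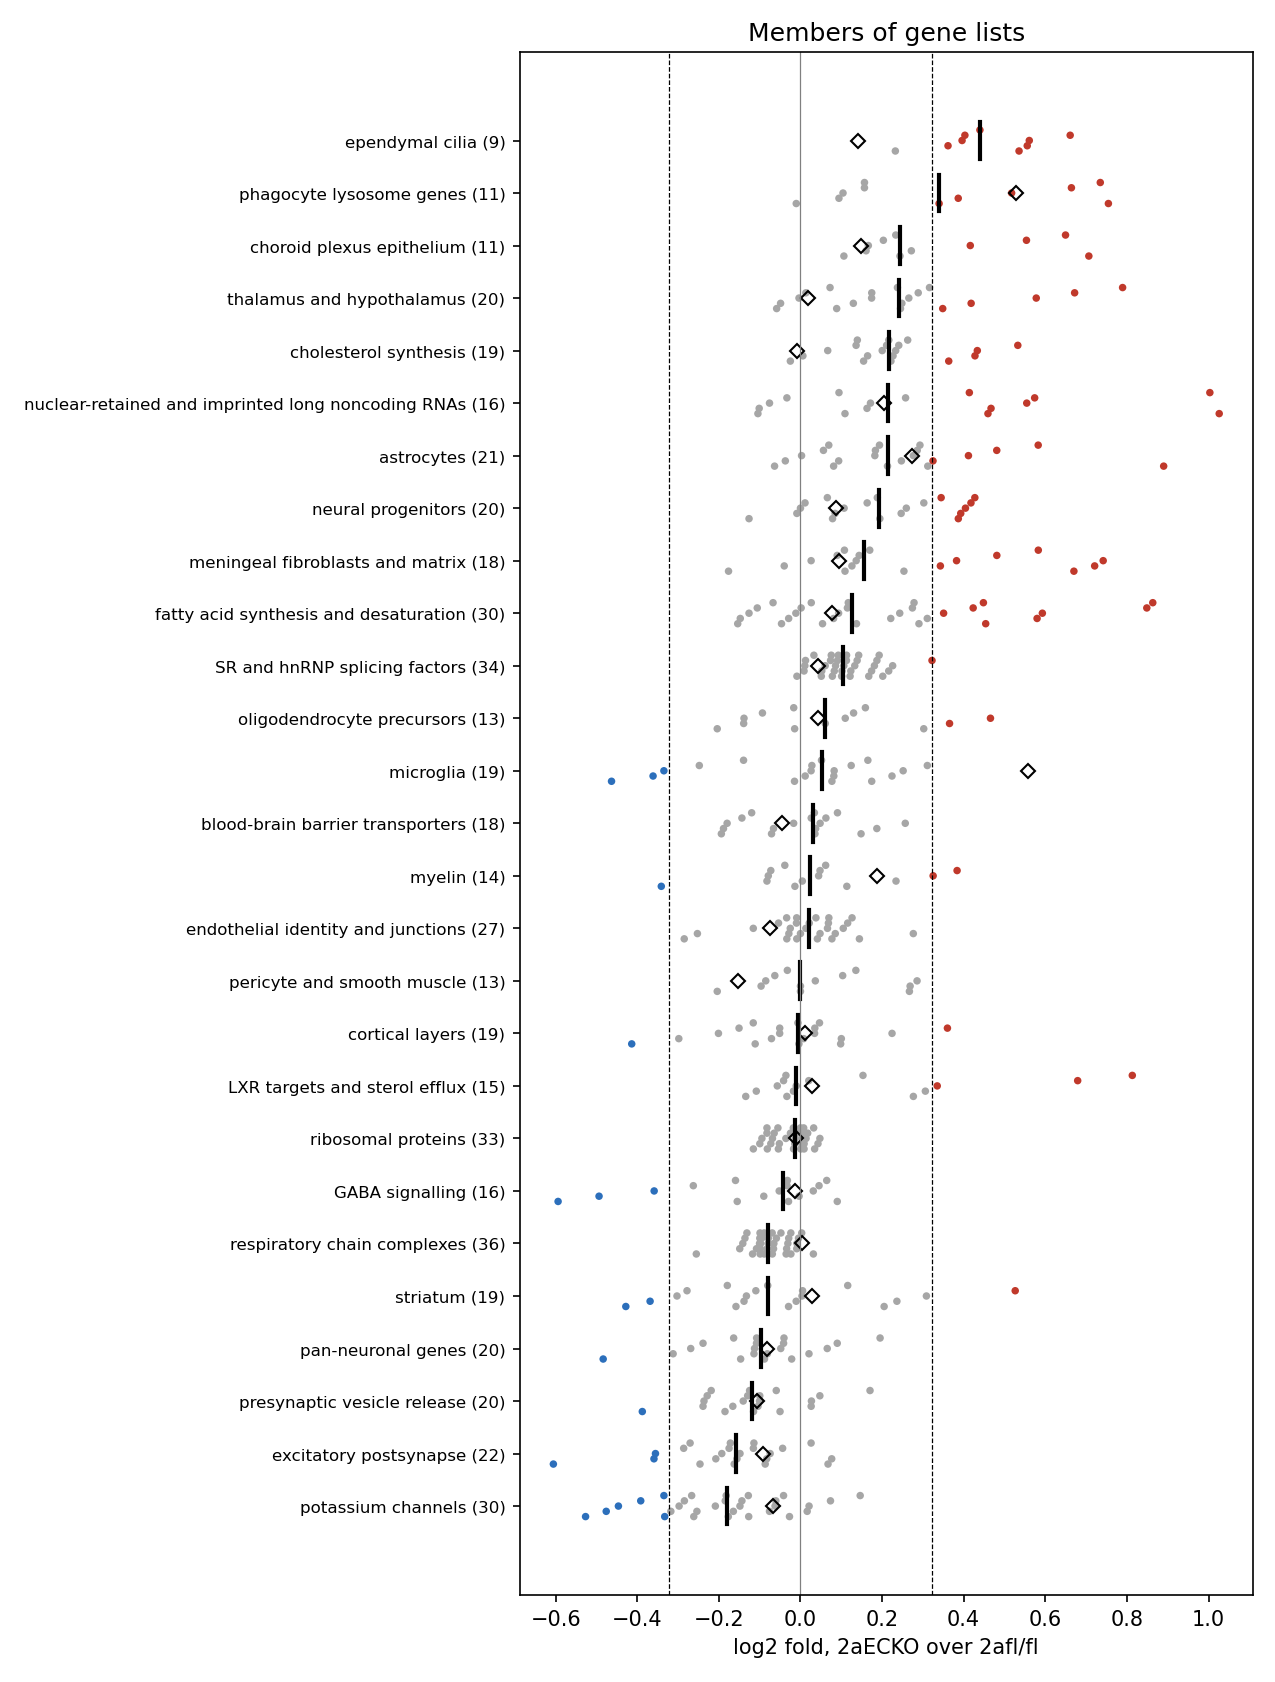
Log2 fold of 2aECKO over 2afl/fl for every measured member of 27 gene lists (points; number of genes in parentheses; red called higher, blue called lower), the list's median (black bar) and its median in 2aiECKO (diamond), with lists in order of the 2aECKO median. The ependymal median is highest at 0.44 and that of the potassium channels lowest at -0.18, and the microglial list has 0.05 in 2aECKO against 0.56 in 2aiECKO.

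Neuronal genes lay slightly below their control, and most lay between the call limits. Lower genes made up 5% of the pan-neuronal list, 13.6% of the excitatory postsynapse and 5% of the presynaptic list, against 1.74% over all members. Of 20 pan-neuronal genes 16 were below 0 and the median log2 fold was -0.10, with 1 called lower, Nefh, the heavy neurofilament of large axons, at -0.48 from 636 and 455. Of 22 genes of the excitatory postsynapse 19 were below 0 and 3 were lower, with a median of -0.16. Itpka, an inositol kinase of dendritic spines, read 494 and 325 (-0.61). Cacng3, an AMPA receptor accessory protein, read 361 and 281 (-0.36), and Camk2a, the kinase of synaptic plasticity, 3617 and 2827 (-0.36), with its 6 probe sets spread from -0.52 to 0.20. On the presynaptic side 1 of 20 genes was lower, Slc17a7, the vesicular glutamate transporter of cortical neurons, at -0.39, and the median was -0.12. The direction of these list medians turned with the other control, to 0.11, 0.11 and 0.23.

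Receptor and channel subunits of neurons were among the lower genes. Of 16 GABA genes 3 were lower and 0 higher, with a median of -0.04, or 0.08 with the other control. Gabra2 read 758 and 502 (-0.59), with all 3 of its probe sets at or below -0.59, its neighbour Gabra4 read 913 and 712 (-0.36), and Gabrd, the subunit of extrasynaptic receptors, 195.1 and 139 (-0.49). Gabra2 and Wdfy1 (477 and 308, -0.63) are also known to differ between inbred mouse strains. Of 7 measured genes known to differ in this way 1 was higher (14.3%) and 2 lower (28.6%), against 2.25% and 1.74% over all members. The higher one was Erdr1 at 0.44, with -0.04 at its other probe set. Strain was not tested here. Of 30 potassium channel genes 6 (20%) were lower and 0 higher, with a median of -0.18 and 26 below 0. Kcnn1, a calcium-activated channel, read 219 and 152 (-0.53), with -0.48 at its other probe set. Kcnh7 and Kcnh3, channels of the ether-a-go-go family, read 68.0 and 48.9 (-0.48) and 299 and 219 (-0.45). Kcnj9, an inward rectifier coupled to G proteins, was at -0.39, with other probe sets up to 0.02. Kcnn3 and Kcnc2, the latter a channel of fast-spiking cells, were both at -0.33. Kcnh7 and Kcnn3 became members only through their 2afl/fl signal and add no separate support. In 2aiECKO 2 channel genes were lower and the median was -0.07, and with the other control the median in 2aECKO was 0.08.

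Genes induced by neuronal activity were lower in part. Of 22 genes 3 were lower and 0 higher, with a median of -0.08. Arc, which regulates AMPA receptor trafficking, read 121 and 80.4 (-0.59), Egr3, 1128 and 794 (-0.51, with 0.01 at its other probe set), and Egr4, 214 and 162 (-0.40). In 2aiECKO they were at 0.04, -0.14 and 0.00. Of 18 interneuron genes 15 lay between the limits, and the median was -0.05. The 2 lower ones were Pvalb, the calcium buffer of fast-spiking cells, at -0.48 and Lhx6, a factor of their lineage, at -0.38. The 1 higher was Prox1 at 0.35. Rgs4, a regulator of G protein signalling and the 1 lower of the 19 cortical layer genes, read 2339 and 1756 (-0.41). Of 25 neuropeptide genes 1 was lower, Cck, with 2125 and 1671 (-0.35), and 1 higher, Avp, with a median of -0.11. Among 13 hippocampal genes Tdo2 and Spink8 were lower at -0.59 and -0.51 from signals near 50, and Prox1, Lhx9 and Zbtb20 were higher, the last at 0.35. Tdo2 and Spink8 became members only through their 2afl/fl signal and add no separate support. Of 29 axon guidance genes 2 were higher, the receptors Robo2 at 0.61 and Nrp2 at 0.43, and 2 lower, the sorting receptor Sorcs2 (328 and 192, -0.77) and the receptor kinase Met at -0.44.

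**Figure D5:**
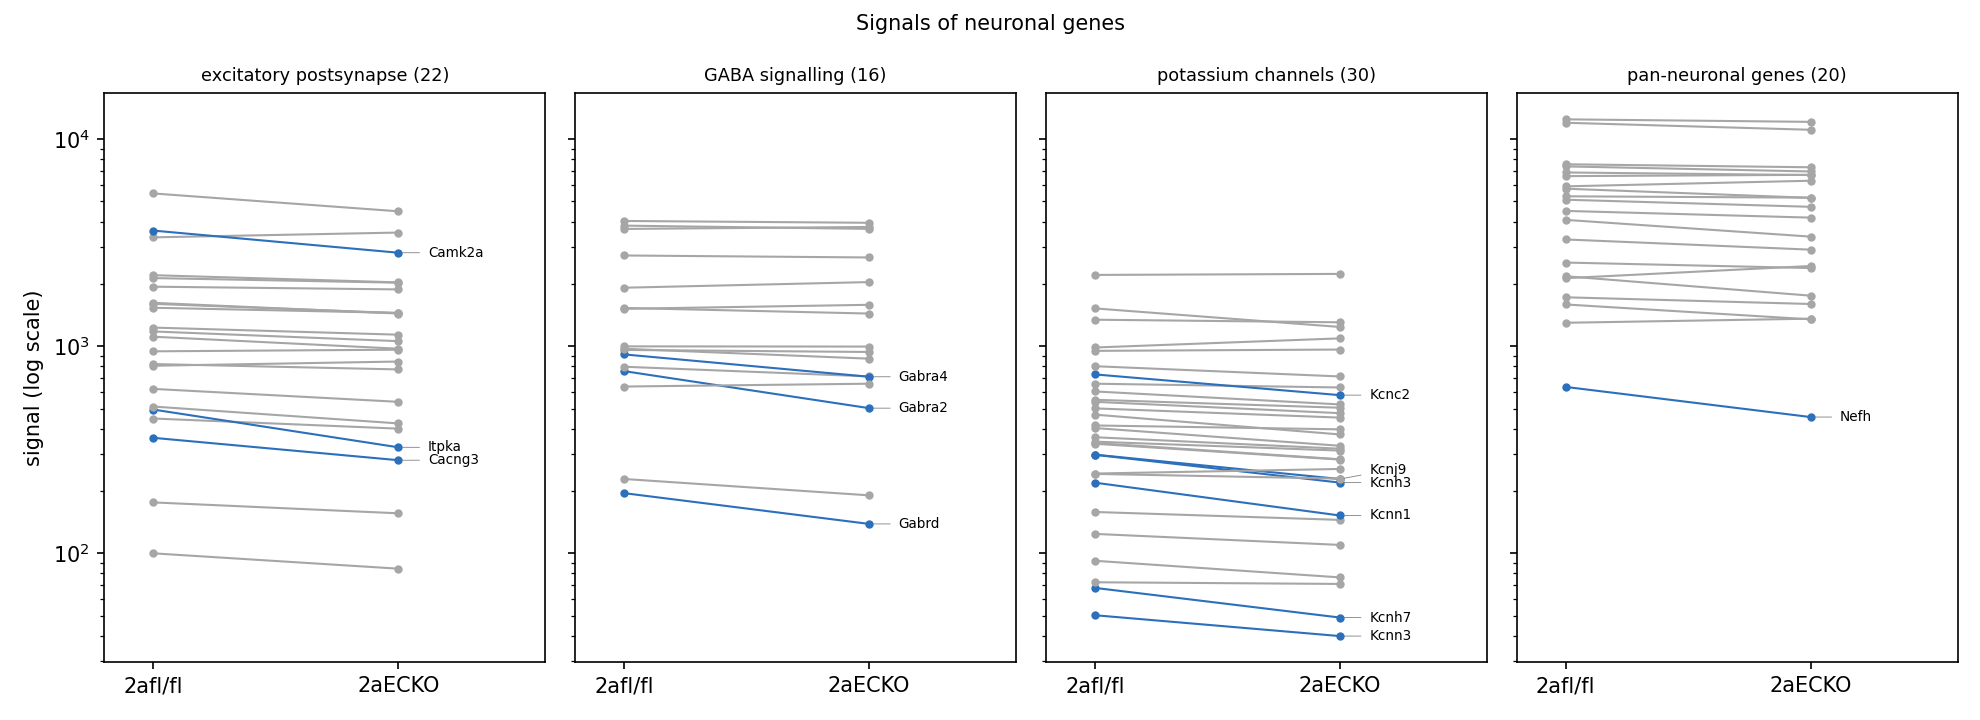
Signal (vertical axis, log scale) on the 2afl/fl and 2aECKO arrays for every measured member of 4 neuronal gene lists, 1 line per gene, blue where called lower; called genes are labelled. Lower genes number 3 of 22 in the excitatory postsynapse, 3 of 16 in GABA signalling, 6 of 30 potassium channels and 1 of 20 pan-neuronal genes, and 0 are called higher.

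Long noncoding RNAs held some of the largest folds. Of 16 nuclear-retained or imprinted ones 7 were higher and 0 lower, with a median of 0.21. Rmst, a noncoding RNA of neural progenitors and midbrain, read 74.5 and 151.7 (1.03). Gt(ROSA)26Sor, the transcript of the locus used for many knock-in alleles, read 576 and 1155, past 2-fold, and had a log2 fold of 0.88 in 2aiECKO. Malat1 and Meg3 have many probe sets, all in 1 direction. Malat1, of nuclear speckles, read 4844 and 7114 (0.55) with 7 probe sets from 0.36 to 0.94, and Meg3, an imprinted RNA, 4859 and 6682 (0.46) with 11 probe sets from 0.31 to 0.60. Miat was at 0.57, with 0.09 at another probe set, and Kcnq1ot1 at 0.47. Of 34 splicing factors of the SR and hnRNP families 33 were above 0, but the median was only 0.10 and 1 was called higher, Hnrnpa1 at 0.32. H3f3b, a gene of replacement histone H3, stood out from the 20 histone and chromatin genes, whose median was 0.07, with signals of 111 and 215 (0.96) at its single passing probe set.

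Genes of energy metabolism lay slightly below their control, while those of protein turnover were near it. Of 36 respiratory chain genes 0 were called, and 34 were below 0 with a median of -0.08, the lowest being Uqcrc1, of complex III, at -0.26. Of 30 glycolytic and TCA cycle genes 0 were called, and 25 were below 0 with a median of -0.07. The lists of 33 ribosomal proteins, 30 proteasome subunits and 15 housekeeping reference genes had 0 called, with medians of -0.01, 0.01 and -0.02, and their members ran from -0.12 to 0.16.

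Stress pathways held few called genes. The lists of the unfolded protein response (20 genes), heat shock (17) and p53 targets (18) had 0 called, with medians of 0.04, -0.01 and 0.02. Of 22 genes of the integrated stress response 1 was higher, the cystine transporter Slc7a11 at 0.51, with 0.03 at its other probe set. Mt1 and Mt2, neighbouring metallothionein genes that bind zinc and copper, read 1831 and 2571 (0.49) and 839 and 1178 (0.49), the only 2 called of 19 genes of oxidative stress and metal response. In 2aiECKO they stood at 0.63 and 0.73. Of 20 glucocorticoid and circadian genes 1 was higher, Sult1a1 at 0.49, and 1 lower, the clock gene Per2 at -0.37, with -0.08 at another probe set. Of 18 thyroid hormone and retinoic acid genes 2 were lower, Rbp4, the plasma carrier of retinol, at -0.56 and Hr, a thyroid hormone target, at -0.48, while Crabp2, which carries retinoic acid, was higher at 0.38 and the list's median was -0.14. Of 25 lysosome and autophagy genes 1 was higher, Ctsz, a cathepsin, at 0.35.

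Most of the remaining extremes belonged to no list. Bpifb9b, a lipid-binding protein of the BPI family, had the highest fold of all, with signals of 27.03 and 66.2 (1.29), and Cdhr4 read 29.4 and 52.5 (0.84). Ano3 had the lowest (79.7 and 44.9, -0.83), followed by Krt12, a corneal keratin (253 and 143, -0.82, with -0.79 at its other probe set). Of 10 genes of pituitary, retina and lens 3 were lower, Krt12, the pituitary hormone gene Lhb at -0.39 and the lens crystallin gene Cryaa at -0.32. Erich6, Myl4, Sowahb, Tnfrsf22 and Wasf3 lay between -0.78 and -0.57, each at a single passing probe set. Neither Bpifb9b, Cdhr4 nor Ano3 was past a call limit in 2aiECKO, where they stood at -0.06, -0.06 and 0.02, whereas Cryaa was at -2.45 there.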

How the data were processed

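Cerebrum RNA of pooled mice was measured on Affymetrix Mouse 430 2.0 arrays, 1 per group. Per the paper's methods the authors adjusted background, normalized by quantiles and summarised probes by RMA, and the deposited intensity of each probe set is linear, not log2. The methods name the affy package in R and the submitters' processing notes name Partek 6.6, and the values do not settle which was used. The pairs appear to have been summarised apart, since in each pair about 8% of values share a remainder of their own on division by 0.5 (0.377 and 0.453, within 0.001), where even spacing gives 0.4%. Folds were therefore taken within a pair. RNA with an integrity number of at least 8.0 by the series text, or 8.5 by the methods, was used.

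Of 45101 probe sets, 34958 carry 1 symbol in the platform annotation, 932 several and 9211 are unnamed here. Symbols and gene order come from RefSeq GRCm38.p6, to which 34754 matched by gene identifier. Log2 folds were counted in 62 lists of 1330 genes, of which 1116 were measured. The members and lists were chosen with earlier results of these data known. Named genes are Mfsd2a, the 15 highest and 15 lowest members whose probe sets had 1 sign (unnamed models and sex-linked genes left out), and of each list the members past a call limit, up to the 6 largest, or the 2 largest where 0 passed. Genes outside this rule are said to be so, or are defining markers and promoters. No test was run, since each group is 1 array. The steps were run on simulated data with planted folds well past the call limits and less scatter than the folds here. That run checks the code and does not measure how accurate the calls are. They ran under Python 3.11.15, with loess (fraction 0.3) from statsmodels 0.14.6, tables from pandas 2.3.3, arithmetic from numpy 2.4.6 and plots from matplotlib 3.10.9. The call limits and minimum signal are those of the methods for higher genes, mirrored for lower ones.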

Additional observations from a re-analysis of the deposited data

Results flagged for a closer look

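Some genes past a call limit in 2aECKO were past the opposite one in 2aiECKO. With 1 array per group these differences between the pairs were not tested. Alas2, which starts haem synthesis in red cells, stood at a log2 fold of 1.05 against -0.51 in the 2aiECKO pair. The probe sets that match several globin genes went the same way. The 3 for alpha globin had 1.44, 1.47 and 1.51 in 2aECKO and -0.74, -0.77 and -0.68 in 2aiECKO, and the 1 for beta globin had 1.46 and -0.50. Erdr1 had 0.44 and -0.38, but its probe sets disagreed in 2aECKO, the other giving -0.04. G530011O06Rik, next to Erdr1 on the X chromosome, had 0.37 and -0.44.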

How the results depend on the processing

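The 297 higher and 229 lower genes became 39 and 13 at a fold of 1.5. The count of lower genes was 143 at a minimum signal of 100, 482 with no minimum and 136 with 16 added to the signal, while the higher count stayed within 1.5 times under those. Against the 4-OHT control after quantile normalization of all 4 arrays, 1070 genes were higher and 2221 lower. Of the list medians, 28 of 62 moved there by less than the spread of 0.0793 between probe sets of a gene, and 34 by more. Of list medians past a call limit in the report, only that of the phagocyte lysosome genes took the opposite sign, at -0.25. Several medians nearer 0 also changed sign. Among them were microglia, from 0.05 to -0.20, and presynaptic vesicle release, from -0.12 to 0.23. Lowest of the 33 medians that moved beside the phagocyte one were -1.03 for pituitary retina and lens, -0.21 for interferon response and antigen display, -0.20 for microglia, -0.18 for hypoxia and angiogenic signals, -0.17 for ribosomal proteins, -0.13 for heat shock, -0.12 for fatty acid oxidation and ketone use, -0.089 for proteasome, -0.056 for lysosome and autophagy, -0.029 for thalamus and hypothalamus, -0.011 for reactive astrocytes. Next in order were 0.031 for ependymal cilia, 0.057 for genes known to vary between inbred strains, 0.058 for choroid plexus epithelium, 0.081 for neural progenitors, 0.081 for GABA signalling, 0.083 for potassium channels, 0.10 for LXR targets and sterol efflux, 0.11 for pan-neuronal genes, 0.11 for excitatory postsynapse, 0.11 for pericyte and smooth muscle, 0.13 for cholesterol synthesis. The highest were 0.14 for sex-linked genes, 0.15 for striatum, 0.16 for blood-brain barrier transporters, 0.16 for hippocampus, 0.19 for erythroid and blood, 0.23 for presynaptic vesicle release, 0.36 for astrocytes, 0.40 for myelin, 0.41 for meningeal fibroblasts and matrix, 0.43 for hindbrain cerebellum and olfactory bulb, 0.75 for nuclear-retained and imprinted long noncoding RNAs. Of 130 named genes past a call limit and measured under that control, 67 stayed past it in the same direction. Of 163 named genes measured there, 23 past a call limit took the opposite sign, with log2 folds of Lgals3 -0.52, Apoc1 -0.50, Lyz2 -0.46, Hnrnpa1 -0.42, Gpnmb -0.38, Ctsz -0.18, Isl1 -0.14, Nrp2 -0.10, Foxj1 -0.091, Agt -0.087, Fdps -0.082, Pax6 -0.066, Id3 -0.065, Id1 -0.049, Dynlrb2 -0.021, Camk2a 0.045, St8sia5 0.077, Kcnc2 0.13, Nefh 0.14, Kcnh3 0.22, Kcnj9 0.48, Slc17a7 0.50, Mobp 1.40. This setting brings in the difference between the pairs by construction.

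Under the other alternatives few list medians moved beyond that spread. The ependymal median was 0.54 at a minimum signal of 100 and 0.56 without probe sets of less specific design, and that of reactive astrocytes 0.029 over the mean of all probe sets. With no minimum signal, that of the phagocyte genes was 0.19 and that of erythroid genes -0.075. The erythroid median was 0.13 over the mean of all probe sets, that of pituitary, retina and lens genes -0.21 after quantile normalization of all 4 arrays, and that of long noncoding RNAs 0.30 without probe sets of less specific design, where Erdr1 took the opposite sign (-0.043). No paired analysis was possible because each group has 1 array, and for the same reason no array could be left out. Depth has no counterpart here, but folds of genes with low signals scatter more, and those that rest on 1 probe set have no other reading.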

Other observations

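Around Mfsd2a itself, the 20 measured genes on each side in the order of the reference annotation showed 0 called in either direction. Their median log2 fold was -0.01, from -0.25 for Fhl3 to 0.29 for Col9a2, and 15 of the 40 were above 0.

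Among 13126 members with a position, 17 pairs of neighbouring members were both higher and 9 both lower. Some are related genes of 1 family, such as Fads2 and Fads1 (0.58 and 0.45), Lyz2 and Lyz1, Mt2 and Mt1, Gabra2 and Gabra4, Irx3 and Irx5 (0.33 and 0.61) and the gap junction genes Gjb2 and Gjb6 (0.37 and 0.32). Others are imprinted or matrix neighbours, Dlk1 and Meg3 (0.50 and 0.46) and Omd and Ogn (0.39 and 0.58). On the X chromosome 3 members in a row were higher, Mid1 at 0.62, G530011O06Rik at 0.37 and Erdr1 at 0.44. These pairs were picked from their values and have no test.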
